A study of Mus musculus with 6 samples.

Results

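Tissue macrophage genes were described in leukaemia stem and progenitor cells, as a set of 10 named genes taken by symbol from the 24015 genes listed: C1qa, C1qb, C1qc, Mrc1, Fcna, Emr1, Cd163, Stab1, Mpeg1 and C6. All 10 were listed and all 10 had enough counts to be tested. RNA sequencing covered 6 mouse libraries, 3 labelled LSPC from untreated mice and 3 labelled LSPCT from tamoxifen-treated mice, all with established acute myeloid leukaemia of the MLL-AF9 fusion type. In both groups the leukaemic cells derived from marrow progenitors (lin-cKit+) of the cross named NIKERT2, which carried both Rosa-loxp-STOP-loxp-NIK and Rosa-CreERT2. CreERT2 is a Cre recombinase that tamoxifen activates and that then removes the stop in front of the kinase NIK. Since tamoxifen was given to 1 group only, drug, Cre activity and NIK cannot be told apart as sources of a difference. Neither the age of the mice nor the sort gate is given, and separate mice are not named as the source of the replicates, so p-values measure only the spread between these libraries, which may be technical.

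The genes were chosen with the difference between the groups and the position of 1 tamoxifen library already known. Fold changes between the groups and the values of that library are therefore descriptions, without a test. In bulk RNA of sorted cells, more cells of a type and more RNA per cell cannot be told apart.

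C1qa, C1qb and C1qc encode the chains of C1q, the recognition part of the classical complement pathway, which tissue macrophages make in large amounts. Resident macrophages of marrow, spleen and liver clear dying cells and old red cells through scavenger and lectin receptors, among them the mannose receptor (Mrc1), the haemoglobin-haptoglobin receptor (Cd163) and stabilin-1 (Stab1). Emr1, now named Adgre1, encodes F4/80, Fcna the complement lectin ficolin A, Mpeg1 the pore-forming perforin-2 of phagosomes, and C6 a component of the membrane attack complex.

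Promoters are shown for the pair of C1q genes and the mannose receptor gene, which moved together across libraries, and for Mpeg1, which went the other way. Each runs from 250 bases before to 50 bases after the annotated start, 300 bases in all, from RefSeq on build GRCm38.p6. Capitals mark the PU.1 core GAGGAA and the MAF half-site TGCTGA on either strand, motifs of transcription factors that act in macrophages. The windows are chr4:136886151-136886450 (minus strand) for C1qb, chr4:136892865-136893164 (minus strand) for C1qc, chr2:14229164-14229463 (plus strand) for Mrc1 and chr19:12460520-12460819 (plus strand) for Mpeg1.
C1qb: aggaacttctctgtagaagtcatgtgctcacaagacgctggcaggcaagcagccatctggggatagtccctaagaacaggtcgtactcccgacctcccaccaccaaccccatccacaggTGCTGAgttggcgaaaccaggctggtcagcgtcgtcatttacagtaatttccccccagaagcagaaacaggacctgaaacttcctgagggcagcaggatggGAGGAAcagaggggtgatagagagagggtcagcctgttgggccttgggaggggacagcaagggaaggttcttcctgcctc
C1qc: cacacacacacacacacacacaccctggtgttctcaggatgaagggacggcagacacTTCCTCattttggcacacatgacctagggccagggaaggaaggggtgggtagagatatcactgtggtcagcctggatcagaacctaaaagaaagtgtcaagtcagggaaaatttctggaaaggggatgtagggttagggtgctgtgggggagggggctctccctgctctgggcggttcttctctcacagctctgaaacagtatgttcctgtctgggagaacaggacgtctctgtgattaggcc
Mrc1: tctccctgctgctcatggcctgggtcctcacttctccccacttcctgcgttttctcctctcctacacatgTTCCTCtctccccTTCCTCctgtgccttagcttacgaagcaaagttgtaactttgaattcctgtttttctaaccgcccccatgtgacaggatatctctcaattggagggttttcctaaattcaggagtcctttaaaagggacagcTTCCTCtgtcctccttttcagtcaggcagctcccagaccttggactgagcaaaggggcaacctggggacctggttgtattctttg
Mpeg1: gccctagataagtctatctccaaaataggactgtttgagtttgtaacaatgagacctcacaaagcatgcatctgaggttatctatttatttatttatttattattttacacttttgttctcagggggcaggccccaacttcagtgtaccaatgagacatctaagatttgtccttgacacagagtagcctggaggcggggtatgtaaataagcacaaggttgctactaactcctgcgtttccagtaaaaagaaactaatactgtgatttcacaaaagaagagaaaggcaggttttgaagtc
Of the 10 genes 8 matched an entry, all but C1qa and Emr1. GAGGAA was present in 5 of the 8 windows, C1qb, C1qc, Mrc1, Fcna and Stab1, against 28.3% of 32851 promoter windows of the same length. TGCTGA was present in C1qb, Fcna and Stab1, 3 of 8, against 19.5%. Fcna held 4 copies of GAGGAA and Mrc1 3, and no 2 of these matches overlapped. Of motifs searched by name alone, the NF-kB consensus was found in C1qc (8.46% of all windows) and the interferon-stimulated response element in none of the 8 windows (3.44% of all windows). Mpeg1, Cd163 and C6 held none of these motifs. A match describes letters in a window, not binding.

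Total counts per library were 19999071 to 26773176. A gene with no count could still hold up to 3 counts, which is 0.111 to 0.150 CPM (counts per 1000000 counts of the library, TMM-scaled), for counting error only. Map3k14, the gene of NIK, was higher in each tamoxifen library (129.9 to 190.6 CPM) than in any untreated one (24.2 to 28.8 CPM), so the groups matched their labels. Tamoxifen replicate 1 stood apart from replicates 2 and 3 on the second principal component, which held 17.2% of the variance (48.2 against -25.8 and -18.6). Kit and Myb, markers of the labelled cell type, were present in every library, at 117 to 194 CPM and 675 to 806 CPM. Mecom, another such marker, had 2.68, 1.36 and 2.93 CPM untreated and 0, 4.74 and 2.48 CPM in tamoxifen replicates 1 to 3. Hoxa9 had 215 to 269 CPM untreated and 430, 159 and 154 CPM with tamoxifen. Of the same list, Flt3 (log2 -1.20, SE 0.15) and Fcgr3 (log2 -0.49, SE 0.08) were lower with tamoxifen. Kit, Myb, Mecom and Hoxa9 were named after their values were seen.

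The C1q genes had at most 73 counts in any untreated library and were higher in each tamoxifen library. C1qa had 73, 8 and 54 counts in untreated replicates 1 to 3 (3.63, 0.339 and 2.005 CPM) and 1852, 173 and 323 counts in tamoxifen replicates 1 to 3 (92.6, 8.03 and 14.3 CPM). The groups did not overlap, but tamoxifen replicate 1 held 1852 of the 2348 tamoxifen counts. C1qb had 43, 7 and 65 counts untreated (2.14, 0.297 and 2.41 CPM) and 1305, 179 and 315 counts with tamoxifen (65.2, 8.31 and 13.9 CPM). C1qc had 43, 5 and 41 counts untreated (2.14, 0.212 and 1.52 CPM) and 1314, 150 and 319 counts with tamoxifen (65.7, 6.96 and 14.1 CPM). In both genes, as in C1qa, tamoxifen replicate 1 was highest and untreated replicate 2 lowest of all 6 libraries. The log2 fold changes were 4.28 for C1qa (standard error, SE, 1.06), 4.17 for C1qb (SE 0.93) and 4.49 for C1qc (SE 0.98). Without tamoxifen replicate 1 they were 2.51 (SE 0.66), 2.78 (SE 0.61) and 3.04 (SE 0.65).

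The spread within a group was about as wide in the untreated as in the tamoxifen libraries. The highest C1qa library exceeded the lowest 10.7-fold untreated and 11.5-fold with tamoxifen, C1qb 8.13-fold and 7.85-fold, and C1qc 10.1-fold and 9.43-fold. Replicate 2 was the lowest library of either group for all 3 chains. The mean log2 level of the 3 genes lay 1.07, -1.77 and 0.70 from its group mean in untreated replicates 1 to 3, and 1.87, -1.36 and -0.50 from it in tamoxifen replicates 1 to 3.

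The 3 chains did not keep exactly 1 ratio. C1qb counts per C1qa count were 0.705 in tamoxifen replicate 1 (95% exact binomial interval 0.656 to 0.757), 1.03 in replicate 2 (0.835 to 1.28) and 0.975 in replicate 3 (0.832 to 1.14). The interval of tamoxifen replicate 1 thus lay below those of the other tamoxifen libraries. For C1qc per C1qa the ratio was 0.710 (0.661 to 0.762), 0.867 (0.692 to 1.08) and 0.988 (0.843 to 1.16), and only the intervals of replicates 1 and 3 did not overlap. In the untreated libraries the C1qb ratio was 0.589 (0.394 to 0.870), 0.875 (0.270 to 2.76) and 1.20 (0.826 to 1.76), and the C1qc ratio 0.589 (0.394 to 0.870), 0.625 (0.161 to 2.17) and 0.759 (0.493 to 1.16). These intervals cover counting error only, and reads without molecular identifiers are not independent molecules.

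On the map of RefSeq the genes lie next to each other in the order C1qb, C1qc, C1qa, between Ephb2 and Epha8. Ephb2, an ephrin receptor gene named for its position after its values were seen, stood at 2.09, 2.12 and 3.49 CPM untreated and at 11.1, 4.36 and 5.40 CPM with tamoxifen (log2 1.43, SE 0.41, edgeR quasi-likelihood adjusted p = 0.0472). This call was lost under 7 of 14 alternatives. Epha8 had too few counts to be tested (at most 0.594 CPM), and Zbtb40, the gene after it, differed by 0.37 (SE 0.18, edgeR adjusted p = 0.194).

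**Figure D1:**
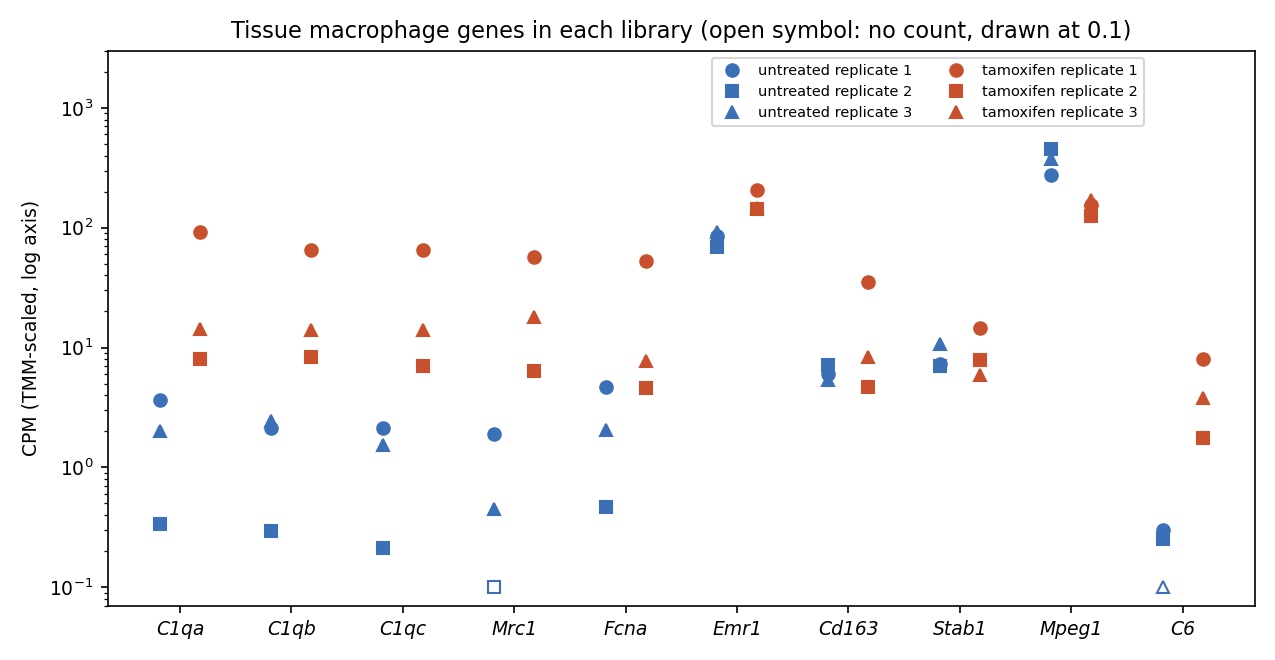
CPM of each of the 10 genes (log axis) in the 3 untreated (blue) and 3 tamoxifen (red) libraries, with a symbol for each replicate number; open symbols had no count and are drawn at 0.1. C1qa, C1qb, C1qc, Mrc1, Fcna and Cd163 are highest in tamoxifen replicate 1 by a wide margin, whereas Emr1 and Mpeg1 stay within 1.65-fold inside each group.

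Mrc1, the mannose receptor gene, followed the C1q genes. Untreated, it had 38, 0 and 12 counts (1.89, 0 and 0.446 CPM), and with tamoxifen 1141, 136 and 409 counts (57.0, 6.31 and 18.1 CPM). Each tamoxifen library exceeded each untreated one, and untreated replicate 2, where no count was found, could hold up to 0.127 CPM. The log2 fold change was 5.18 (SE 1.12) with all libraries and 4.03 (SE 0.94) without tamoxifen replicate 1.

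Fcna, the ficolin A gene, had 95, 11 and 55 counts untreated (4.72, 0.466 and 2.04 CPM) and 1063, 99 and 176 counts with tamoxifen (53.1, 4.60 and 7.79 CPM). Here the groups overlapped, since untreated replicate 1 stood above tamoxifen replicate 2. Its log2 fold change of 3.19 (SE 1.05) became 1.38 (SE 0.69) without tamoxifen replicate 1. An antisense transcript of GENCODE, not listed in the counts, covers 6.55% of the exon bases of Fcna, and no source used here gives the strand setting of the counts.

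The other scavenger receptors did not share the group difference. Cd163 stood at 5.97, 7.16 and 5.31 CPM untreated and at 35.1, 4.69 and 8.28 CPM with tamoxifen. Tamoxifen replicate 1 was the high library, and replicate 2 was lower than all 3 untreated ones. The log2 fold change of Cd163 was 1.38 (SE 0.65), and 0.08 (SE 0.28) without tamoxifen replicate 1. Stab1 stood at 7.26, 7.04 and 10.7 CPM untreated and at 14.5, 7.89 and 5.89 CPM with tamoxifen, where the groups overlapped and the lowest library was a tamoxifen one. Its log2 fold change went from 0.18 (SE 0.35) to -0.27 (SE 0.25) without tamoxifen replicate 1. Nt5dc2, on the opposite strand, covers 1.09% of the exon bases of Stab1.

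Emr1 and Mpeg1 were expressed in every library and moved in opposite directions. Emr1 had 84.7, 69.6 and 92.3 CPM untreated and 205.5, 141.9 and 147.5 CPM with tamoxifen, and the groups did not overlap. Its log2 fold change was 1.005 (SE 0.17) with all libraries and 0.82 (SE 0.12) without tamoxifen replicate 1. Mpeg1 had 275.8, 454.1 and 371.7 CPM untreated and 154.4, 125.6 and 169.0 CPM with tamoxifen, again without overlap. Mpeg1 was thus the 1 gene of the 10 that was lower with tamoxifen in every library, with a log2 fold change of -1.29 (SE 0.19) and of -1.31 (SE 0.21) without tamoxifen replicate 1.

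C6 rested on few counts, 6, 6 and 0 untreated (0.298, 0.254 and 0 CPM) and 159, 38 and 86 with tamoxifen (7.95, 1.76 and 3.81 CPM). Every tamoxifen library lay above every untreated one. The log2 fold change was 4.64 (SE 0.89), and 3.96 (SE 0.79) without tamoxifen replicate 1. Its order among the untreated libraries differed from that of the C1q genes, with replicate 3 at 0.

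Per kilobase of exon, which allows levels of different genes to be compared, Mpeg1 was the most abundant of the 10 in the untreated libraries (mean 84.7 CPM per kb), followed by Emr1 (25.4), and the other 8 had means of 0.0518 to 1.91. With tamoxifen the order of the means was Emr1 (50.9 CPM per kb), C1qa (36.8), Mpeg1 (34.5), C1qb (26.8), Fcna (15.9), C1qc (15.0), Mrc1 (4.26), Cd163 (2.94), C6 (1.27) and Stab1 (0.918). The means of C1qa, C1qb, Fcna and C1qc stem largely from tamoxifen replicate 1, and from C1qa to C1qc neighbours differ by less than their spread over the 3 libraries. In tamoxifen replicate 1 alone C1qa led at 89.0 CPM per kb against 63.5 for Emr1 and 35.6 for Mpeg1. In tamoxifen replicates 2 and 3 it was at 7.72 and 13.7 CPM per kb, below Emr1 (43.8 and 45.5) and Mpeg1 (29.0 and 39.0).

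In the fit over all genes, 6 of the 10 genes were past the threshold as higher (C1qa, C1qb, C1qc, Mrc1, Emr1 and C6) and 1 as lower (Mpeg1), while Fcna, Cd163 and Stab1 were not (edgeR quasi-likelihood test, adjusted p under 0.05). Of the 12729 genes tested, 8.96% were called higher and 8.24% lower, 17.2% in all. The same 6 genes and Mpeg1 were those whose groups did not overlap, against 18.1% of tested genes with tamoxifen above and 19.6% with tamoxifen below. The genes were chosen on this contrast, so nothing is read from these counts. The count of 6 stayed without tamoxifen replicate 1 (the same 6 genes, where 12.8% of genes were called higher, 12.3% lower and 25.1% in all), but it was 3 without untreated replicate 1, 3 without untreated replicate 2 and 2 with limma voom. The median log2 fold change of the 10 genes was 3.68 with all libraries and 1.95 without tamoxifen replicate 1, beside 0.00 and 0.01 over all genes tested.

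**Figure D2:**
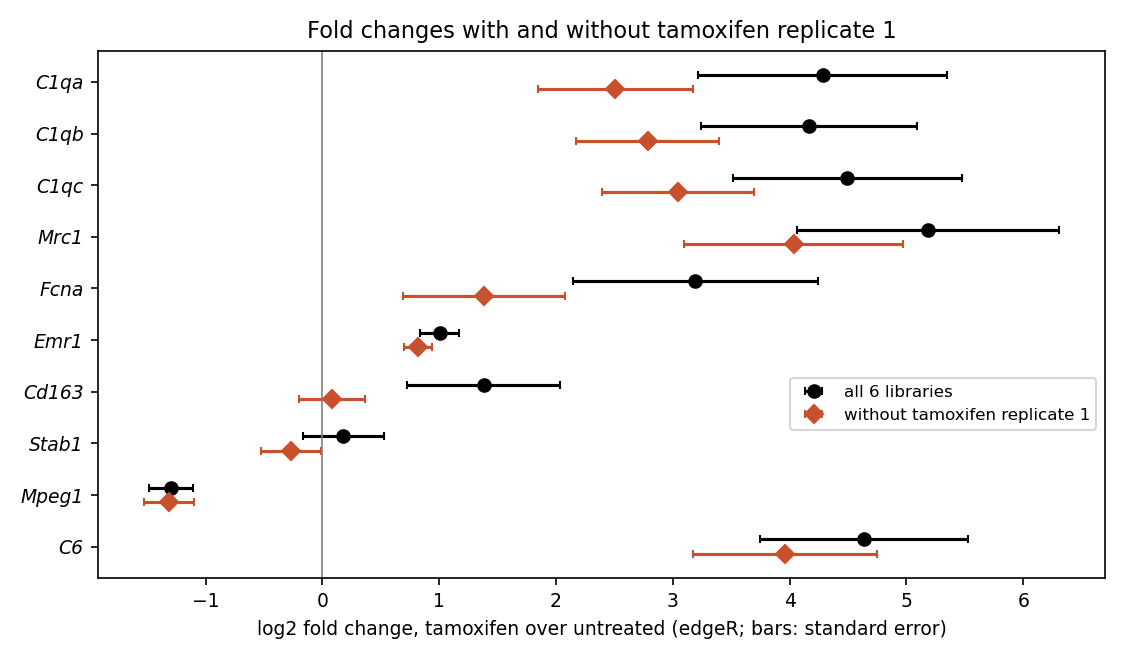
Log2 fold change of each gene, tamoxifen over untreated, from edgeR, with all 6 libraries (black circles) and without tamoxifen replicate 1 (red diamonds); bars are standard errors. The C1q genes, Mrc1, Emr1 and C6 stay above 0 and Mpeg1 below it, whereas Cd163 moves from 1.38 to 0.08 and Stab1 from 0.18 to -0.27.

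Tamoxifen replicate 1 was compared with the other tamoxifen libraries for each gene. It exceeded the mean log2 level of replicates 2 and 3 by 3.13 for Fcna, 3.10 for C1qa, 2.72 for C1qc, 2.59 for C1qb, 2.48 for Cd163 and 2.40 for Mrc1. A difference of at least 2 was found in these 6 of the 10 genes and in 145 of all 12729 tested genes (1.14%). It was smaller for C6 (1.58), Stab1 (1.08) and Emr1 (0.51) and 0.08 for Mpeg1, the 1 gene whose highest tamoxifen library was another (replicate 3). Cd163 therefore had the gap of the C1q genes without their difference between the groups, and C6 a difference between the groups with a smaller gap.

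The untreated libraries split the genes in another way. C1qa, C1qb, C1qc, Mrc1 and Fcna were lower in untreated replicate 2 than their group mean by 1.69 to 2.35 on the log2 scale. Emr1, Cd163, Stab1, Mpeg1 and C6 differed from it by -0.23, 0.23, -0.21, 0.34 and 0.59 there. Over the deviations of all 6 libraries from their group means, the correlation with the mean of the C1q genes was 0.98 for Fcna, 0.95 for Emr1 and 0.94 for Mrc1. It was 0.69 for Stab1, 0.64 for Cd163, 0.31 for C6 and -0.33 for Mpeg1. The points are 6 libraries that share their depth with every gene, and the values are descriptions.

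**Figure D3:**
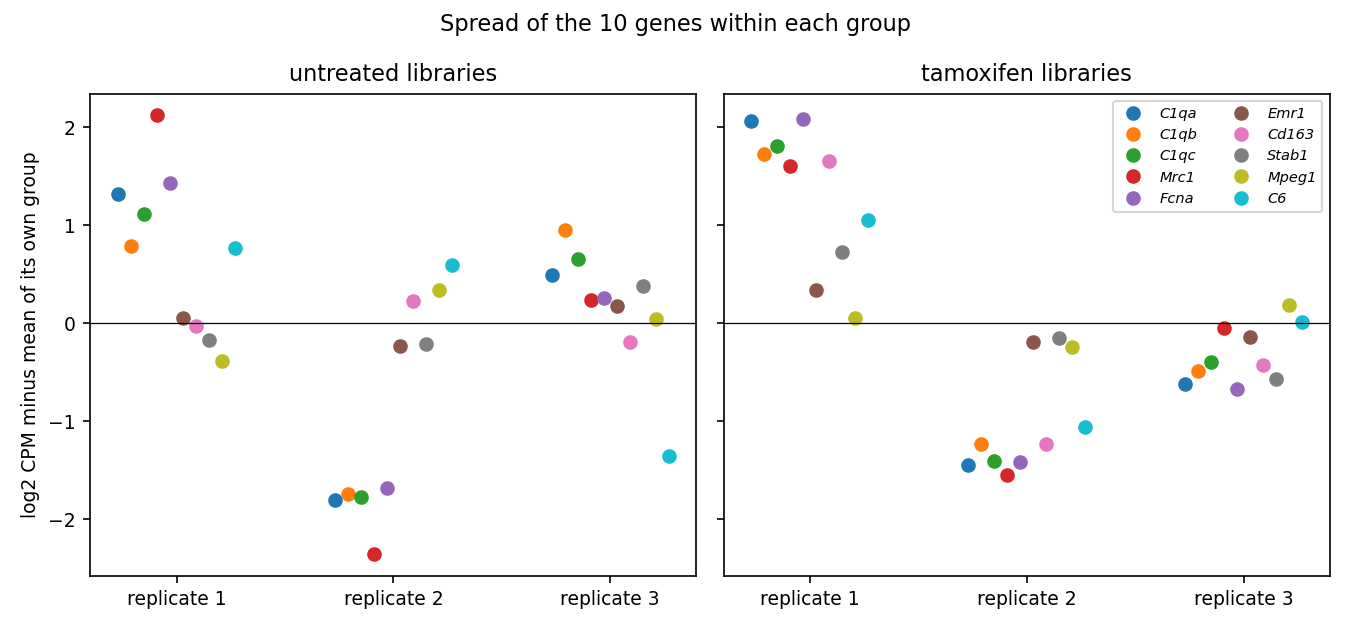
Log2 CPM of each gene minus the mean of its own group, in the 3 untreated (left) and 3 tamoxifen (right) libraries, with 1 colour for each gene. In untreated replicate 2 the C1q genes, Mrc1 and Fcna lie 1.69 to 2.35 below their mean while the other 5 genes lie between -0.23 and 0.59, and in tamoxifen replicate 1 every gene lies above its mean.

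The genes whose level over the 6 libraries was most like that of the C1q genes were sought among 11033 other genes with an average log2 CPM of at least 1. By Pearson correlation with the mean log2 CPM of C1qa, C1qb and C1qc, the 10 closest were Ccnd2 (0.99), Mertk (0.99), Tox (0.99), Axl (0.99), Cfp (0.99), Acot8 (0.99), AW011738 (0.99), Spic (0.99), Gm12942 (0.98) and P2ry13 (0.98). A correlation above 0.9 was found for 318 of the 11033 genes (2.88%), and all points share the same 6 libraries and their depth. Mertk and Axl, receptors for dying cells, and Spic, a transcription factor gene of red pulp macrophages, also had the wide range of the C1q genes. Axl stood at 4.18, 0.805 and 2.12 CPM untreated and at 76.5, 7.06 and 13.3 CPM with tamoxifen, Mertk at 2.24, 0.170 and 0.965 against 29.9, 3.34 and 7.61 CPM, and Spic at 0.845, 0 and 0.334 against 21.0, 2.92 and 8.497 CPM. Acot8, an acyl-CoA thioesterase gene, ranged only from 20.3 to 25.7 CPM over the 6 libraries, so likeness by correlation does not mean a like size of change.

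Other genes of resident macrophages gave 15 that rose and 1 that fell with tamoxifen out of 31 tested of 40 (edgeR quasi-likelihood, adjusted p under 0.05, against 8.96% and 8.24% of all genes), with a median log2 fold change of 1.37. Aif1, an actin-binding protein gene of macrophages, rose by a log2 fold change of 5.14 (SE 0.38; edgeR adjusted p = 0.000133), with means of 0.9997 ± 0.389 CPM untreated and 36.0 ± 14.1 CPM with tamoxifen (SD, n = 3). The adhesion gene Vcam1, which macrophages and stroma express, rose by 2.98 (SE 0.28), from 78.1 ± 3.96 to 614.5 ± 273 CPM. Cd5l, a secreted protein gene of macrophages, rose by 4.55 (SE 0.94) on the log2 scale. Genes that also rose were Spic, Csf1r, Fcgr1, Siglec1, Axl, Sepp1, Gas6, Itgad, Mertk, Nr1h3 and Gpnmb, with log2 fold changes of 0.97 to 4.81. Cd14 was the gene that fell (-1.47), and Cd14, Csf1r, Nr1h3, Fcgr1, Siglec1, Sepp1, Gas6, Itgad and Gpnmb were named after their values were seen. Of 14 alternatives, Aif1, Vcam1 and Cd5l kept their call in all and Spic lost it in 1, whereas Siglec1 lost it in 3, Csf1r, Axl, Sepp1, Itgad and Cd14 in 4, Mertk in 6, and Nr1h3 and Gpnmb in 7. Fcgr1 lost its call in 5 and Gas6 in 4 of 13. The count of 15 was 13 without tamoxifen replicate 1, 6 without untreated replicate 1, 5 without untreated replicate 2, 9 without tamoxifen replicate 3 and 7 with limma voom.

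Tamoxifen replicate 1 also stood apart over this list. It was the highest of the 6 libraries for 20 of the 31 genes. The share of all tested genes highest in that library was not computed. The median excess over replicates 2 and 3 was 1.40 on the log2 scale, beside -0.0005 over all tested genes. A correlation above 0.9 with the C1q genes was found for 13 of the 31, against 3.26% of all tested genes. This correlation over all 6 libraries includes the difference between the groups. The list was chosen with earlier results of these data known, so this count and the 15 that rose are descriptions. The summed level of the 40 genes was 1499 to 1830 CPM untreated, and 2821, 1326 and 1395 CPM in tamoxifen replicates 1 to 3. Hpgd, a prostaglandin dehydrogenase gene, made up most of the untreated sums, and without it the other 39 genes summed to 562, 544 and 849 CPM untreated and to 2354, 1256 and 1320 CPM with tamoxifen. Tamoxifen replicates 2 and 3 were thus below every untreated library with Hpgd and above every one without it. Most of these 2 tamoxifen sums without Hpgd came from Vcam1 (456 and 457 CPM) and Csf1r (318 and 299 CPM). In the untreated libraries Vcam1 had 75.5 to 82.7 CPM and Csf1r 113 to 203 CPM. No gene but Hpgd was left out of the sums. Not every macrophage gene took part. Cd68, a lysosomal protein gene of mononuclear phagocytes, differed by -0.21 (SE 0.08, edgeR adjusted p = 0.113) and had 97.5 to 121 CPM in all libraries. The Kupffer cell gene Clec4f had no count in any library, and Vsig4 and Folr2 had at most 0.836 CPM in any. Timd4 and Lyve1 were also low and were not tested, but both were highest in tamoxifen replicate 1. Timd4 had 2.60 CPM there against at most 0.447 CPM elsewhere, and Lyve1 0.550 against at most 0.0497 CPM. Maf, a transcription factor gene of macrophages, did not pass (edgeR adjusted p = 0.127), yet it had the excess of tamoxifen replicate 1. It stood at 14.9, 0.975 and 4.56 CPM in tamoxifen replicates 1 to 3, an excess of 2.76 on the log2 scale. Hpgd, Cd68, Clec4f, Vsig4, Timd4, Folr2, Lyve1 and Maf were named after their values were seen. The part of other macrophages among the sorted cells in these results was not tested.

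**Figure D4:**
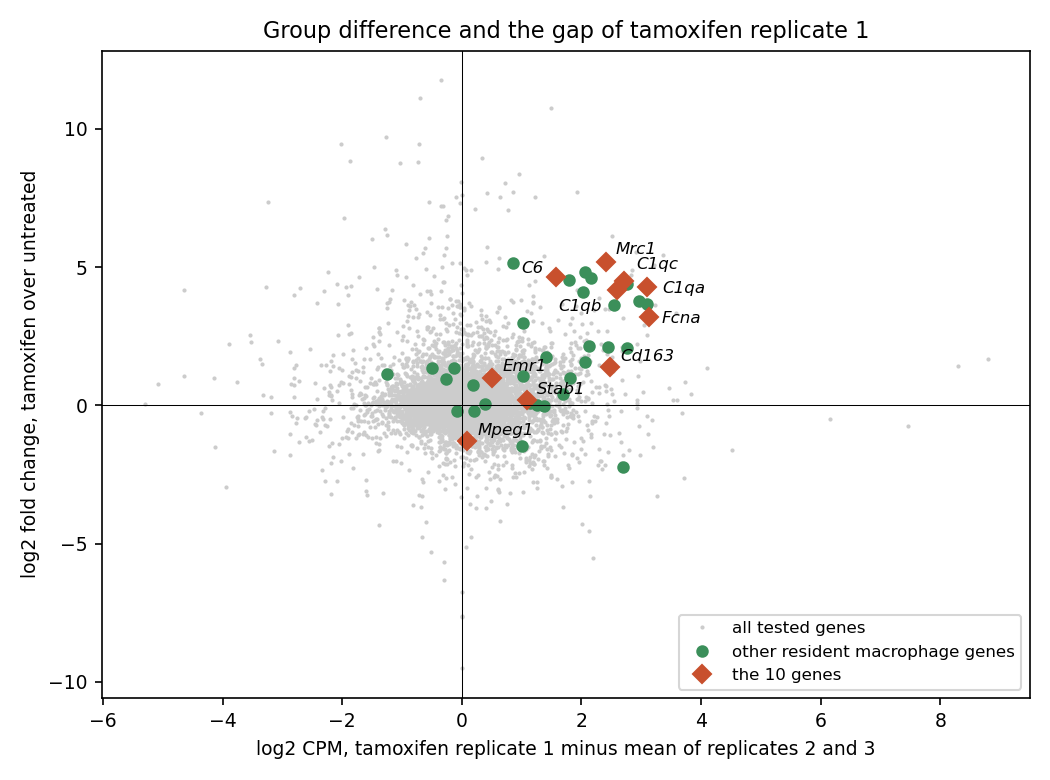
Log2 fold change between the groups (vertical) against the excess of tamoxifen replicate 1 over the mean log2 level of tamoxifen replicates 2 and 3 (horizontal), for all 12729 tested genes (grey), 31 other resident macrophage genes (green) and the 10 genes (red diamonds). Both axes use tamoxifen replicate 1; C1qa, C1qb, C1qc, Mrc1 and Fcna lie at the upper right with excesses of 2.40 to 3.13, and Mpeg1 lies at 0.08 and -1.29.

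Complement genes other than C1q and C6 gave 7 that rose and 2 that fell of 18 tested, out of 36 listed (8.96% and 8.24% of all tested genes). C3, the central component, rose by a log2 fold change of 2.15 (SE 0.11; edgeR adjusted p = 2.47e-05), with means of 354.8 ± 32.6 CPM untreated and 1569 ± 161 CPM with tamoxifen (SD, n = 3). The decay-accelerating factor gene Cd55 (log2 4.90, SE 0.61) and C1rl (1.34, SE 0.17), a relative of the C1r protease, rose, and the phagocyte receptor gene Cd93 fell by 1.21 (SE 0.16). Cd55 rested on few counts, 0, 2 and 3 untreated and 46, 46 and 51 with tamoxifen. C3 did not follow the C1q pattern within the tamoxifen group, with 1434, 1747 and 1527 CPM in replicates 1 to 3. A correlation above 0.9 with the C1q genes was found for 1 of the 18, the properdin gene Cfp. Of the terminal components that act with C6, C7, C8a and C9 had no count in any library, and Hc and C8b had at most 0.1999 CPM. C8g stood at 1.19, 1.10 and 0.928 CPM untreated and at 3.25, 2.23 and 1.90 CPM with tamoxifen, without overlap (log2 1.19, SE 0.35, edgeR adjusted p = 0.0506), and passed under 5 of 14 alternatives. These 6 genes were named after their values were seen. The genes that rose were 4 without untreated replicate 1.

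Scavenger and endocytic receptor genes gave 7 that rose and 4 that fell of 22 tested, against 8.96% and 8.24% of all tested genes. Of the 7, 4 (Axl, Cd5l, Mertk and Siglec1) are also among the 15 resident macrophage genes. Scarb1, the HDL receptor gene, fell by 0.80 (SE 0.09), the beta-glucan receptor gene Clec7a by 1.57 (SE 0.30) and Lrp1, the gene of a large endocytic receptor, by 1.33 (SE 0.26) on the log2 scale, and Cxcl16 rose by 3.41 (SE 0.62; edgeR adjusted p = 0.000794, 0.00985, 0.0117 and 0.00848 in this order). Stab2, the stabilin-2 gene and closest relative of Stab1, stood at 0.447, 0.0848 and 0.186 CPM untreated and at 19.6, 1.72 and 2.39 CPM with tamoxifen, the pattern of the C1q genes that Stab1 lacked (log2 5.06, SE 1.13, edgeR adjusted p = 0.0186; 0.0558, 0.0716 and 0.059 without untreated replicates 1, 2 and 3, and 0.102 with limma voom). Cxcl16 rested on few counts, 5, 2 and 3 untreated and 49, 18 and 33 with tamoxifen. The genes that rose were 2 without untreated replicate 1, 2 without untreated replicate 2 and 3 with limma voom.

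Among macrophage growth factor and transcription factor genes, 3 rose and 4 fell of 24 tested, against 8.96% and 8.24% of all tested genes. All 3 that rose (Spic, Csf1r and Nr1h3) are also among the 15 resident macrophage genes. Spic rose (log2 4.81, SE 1.01, edgeR adjusted p = 0.0151; 0.0660 with limma voom), Mef2c fell by 2.29 (SE 0.17), Csf1, the macrophage colony-stimulating factor gene, by 1.60 (SE 0.20) and Irf8, a monocyte transcription factor gene, by 1.14 (SE 0.21). Spi1, the gene of PU.1, named after its values were seen, had 249.9 to 466.3 CPM in all libraries (log2 0.25, SE 0.18, edgeR adjusted p = 0.375). The number that rose was 5 with DESeq2, and 1 with limma voom, without untreated replicate 1 and without untreated replicate 2.

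Markers of other cell types were set beside these values. Of all tested genes, edgeR called 8.96% higher and 8.24% lower, and the lists are short. Among 11 monocyte markers, edgeR called 0 higher (2 at an unadjusted p under 0.05; DESeq2 0, limma voom 1) and 1 lower, Ly6c2 (log2 -1.87), and 0 of 11 were highest in tamoxifen replicate 1. Of 12 neutrophil markers, 0 passed in either direction with edgeR (0 at an unadjusted p under 0.05), DESeq2 or limma voom, and their summed level was highest in untreated replicate 3 (2391 CPM) and lower in tamoxifen replicate 1 (347 CPM) than in replicates 2 and 3 (843 and 800 CPM). T cell markers gave 2 of 8 that rose, Lck and Cd5, and 1 that fell, Cd28. The call of Cd5 was lost under 6 of 14 alternatives and that of Lck under 2, and limma voom called 1 T cell marker higher. The T cell markers had summed levels of 26.6 to 33.1 CPM untreated and 98.6, 37.0 and 52.8 CPM with tamoxifen. Dendritic cell markers gave 2 of 7 that rose, Ccr9 and Ccr7, and 1 that fell, Flt3, and the call of Ccr7 was lost under 7 of 14 alternatives. Of stromal markers 3 of 7 rose, Col1a2, Pdgfra and Col1a1, with summed levels of 45.0 to 70.0 CPM untreated and 61.2 to 89.3 CPM with tamoxifen. Pdgfra rested on few counts, 1, 1 and 2 untreated and 14, 11 and 13 with tamoxifen. Stab2 was the 1 endothelial marker of 4 that rose, Ccr3 the 1 of 6 of eosinophils, mast cells and basophils, and 0 of 3 B cell, 2 NK cell, 2 erythroid and 2 megakaryocyte markers passed with edgeR, DESeq2 or limma voom. At an unadjusted p under 0.05, edgeR gave 1 NK cell and 1 erythroid marker as higher. Among markers not tested, the plasma cell gene Igj had 6.55 CPM in tamoxifen replicate 1 and at most 0.221 CPM elsewhere. Epor, on the erythroid list, had 2.65 CPM there and at most 0.177 CPM elsewhere. Igj and Epor were named after their values were seen. Of 10 leukaemia stem and progenitor markers, edgeR called 0 higher (1 at an unadjusted p under 0.05; DESeq2 1, limma voom 0) and 2 lower, Flt3 and Fcgr3. Without tamoxifen replicate 1, edgeR called 12.8% of all genes higher and 12.3% lower. Then 2 of 11 monocyte markers were higher and 1 lower, and 1 of 12 neutrophil markers was higher and 1 lower. Of 10 leukaemia stem and progenitor markers 1 was higher and 3 were lower, and of 4 B cell markers 1 was lower. Of 7 eosinophil, mast cell and basophil markers 1 was higher and 2 were lower. NK cell, erythroid and megakaryocyte markers still gave 0. The part of these cell types in the results was not tested.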

How the data were processed

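Each library's deposited file lists raw counts by gene symbol, which the authors did not normalize. The submitters' processing notes name the tools FastQC, TopHat2 (2.1.0), featureCounts and DESeq2 and the build mm9, without roles. Annotation, strand setting and handling of multiply mapped reads are not given in the sources consulted. From the deposited counts, genes were filtered with filterByExpr (minimum 10 counts), scaled with TMM and compared with edgeR 4.0.16 (R 4.3.3; glmQLFit and glmQLFTest, group as the only term, two-sided, Benjamini-Hochberg over all 12729 tested genes, threshold 0.05), a procedure tested on simulated data. The simulated counts were drawn from the fitted spread of each gene with no library set apart, so they cannot cover such a library. SE was derived from the fold change and F. CPM is TMM-scaled, and log2 CPM has a prior count of 2. Exon lengths are from GENCODE M21 (GRCm38), a build other than mm9.

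The 10 genes, the 16 gene lists and the rule for names were chosen with earlier results of these data known. The rule takes the 10 genes, Map3k14, up to 4 passing genes with the smallest p from each list, and the 10 genes most like C1q. Some list genes are not reported here by name, and the counts of list genes include them. C1s, Ahsp and Chi3l3 are symbols of these lists that the files do not list. Alternatives were other scaling factors, filters, DESeq2 1.42.0, limma 3.58.1 voom, the replicate number as a block and leaving out each library.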

Additional observations from a re-analysis of the deposited data

How the results depend on the processing

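Of the 10 genes and the named tested genes for which alternatives were run, none called with all libraries changed direction under those that gave a value, 13 or 14 for each gene. Prg2, not called with all libraries (log2 1.37), went to -1.31 without tamoxifen replicate 1, where it was called lower (edgeR adjusted p = 0.0248). The log2 fold change of Prg2 ranged up to 1.90 when another library was left out. When 1 library was left out, the number of the 10 genes called higher ranged from 3 to 6 and their median log2 fold change from 1.95 to 4.25; all genes called higher ranged from 586 to 1657 and lower from 443 to 1592. Leaving out 1 library, resident macrophage genes gave 5 to 14 higher and 0 to 3 lower, complement genes 4 to 9 and 1 to 2, scavenger receptors 2 to 7 higher, and growth factor and transcription factor genes 1 to 3 higher. With limma voom, 2 of the 10 genes were called higher, as were 7 resident macrophage genes, with 2 lower, 3 scavenger receptors and 1 transcription factor gene; DESeq2 called 5 of the last list higher, and without a filter 3 resident macrophage genes were lower. The causes were not tested. With the replicate number as a block, 7 of the 10 genes were called higher, as Fcna passed (it also passed without a filter, edgeR adjusted p = 0.0405). With that block, 2 resident macrophage genes and 1 complement gene were lower. The deviations of same-numbered libraries correlated at 0.12, -0.11 and 0.11, and not every library correlated best with its own number. Values this small cannot decide whether same-numbered libraries share a source, which the labels do not say. Fewer than 10 counts stood behind C1qa, C1qb, C1qc, Mrc1 and C6 in at least 1 untreated library, which limits every fold change of these genes. The same limit holds for Cd55, Cxcl16, Pdgfra, Ccr3, Ccr7, Stab2, Spic, Cd5l, Siglec1, Fcgr1, Gas6 and Mertk, among others.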

Other observations

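Some markers of other cells were high in tamoxifen replicate 1 as well. Ccr3, a chemokine receptor gene of eosinophils, had 0.199, 0.0848 and 0 CPM untreated and 14.6, 2.14 and 2.88 CPM with tamoxifen. Prg2, the gene of eosinophil major basic protein, had 66.5 CPM in tamoxifen replicate 1 against 3.32 to 12.0 CPM elsewhere, whereas the eosinophil peroxidase gene Epx had at most 0.446 CPM in any library. The prostaglandin dehydrogenase gene Hpgd, which is on the resident macrophage list, went against that list. It had 944, 955 and 981 CPM untreated and 466, 69.5 and 74.9 CPM with tamoxifen, and passed as lower under 4 of 14 alternatives, among them without tamoxifen replicate 1 (log2 -3.73, edgeR adjusted p = 4.43e-07, against log2 -2.24 and 0.0592 with all libraries). Prg2, Epx and Hpgd were named after their values were seen, and the part of any other cell type was not tested.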
